A study of Cavia porcellus with 34 samples.

Results

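Myelin is the lipid-rich membrane that mature oligodendrocytes wrap around axons in the central nervous system. Its compaction rests on a small number of abundant proteins, its lipids are made by dedicated enzymes, and its upkeep needs adhesion to the axon, iron and lipid transport, and a cytoskeleton that shapes the sheath. The 36 genes described here are markers of mature oligodendrocytes and of myelin, chosen by symbol from a fixed list, and they were followed in the paraventricular nucleus (PVN) of the hypothalamus, which drives the hypothalamic-pituitary-adrenal (HPA) stress axis and holds neurones and glia of many kinds. Of the 36, 32 were in the F1 table of 12114 genes, 32 in the F2 table of 12207 genes and 31 in the F3 table of 12068 genes. GJB1, GAL3ST1, S1PR5 and EVI2A were matched in none of the tables and HAPLN2 was not matched in F3, and these are not analysed here. Every member that was matched passed the filter on low values, a mean of at least 10.

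RNA was sequenced from PVN micropunches of juvenile female guinea pigs (Cavia porcellus), aged 40 postnatal days, from the paternal line. Their F0 ancestors had received, while pregnant, courses of the synthetic glucocorticoid betamethasone (labelled Beta, called sGC here) or of saline (labelled Control, called Veh here), so that F1 animals were exposed in utero and F2 and F3 animals descend from them through F1 males. Each group held 5 animals in F1 and in F2 and 6 animals in F3, where 2 of the sGC animals came from the second sequencing batch. That batch also held re-sequenced libraries of Veh SGM5 and SGM9, which are not used here. A micropunch takes all cells of a piece of tissue and each animal gave 1 library. The p-values measure the spread between these animals that was left after the authors' normalization. That step took out directions in which animals of the same group differed, 1 in F1, 1 in F2 and 2 in F3. The main fits make no allowance for this, so their p-values can be too small. In such bulk tissue, fewer oligodendrocytes, less myelin RNA per oligodendrocyte and a different share of neighbouring tissue in the punch cannot be told apart. The paper states that its punches may include hypothalamic regions next to the PVN. AVP and OXT, peptide genes of PVN neuroendocrine neurones, were present in every animal, at no less than 6289 and 3273 normalized counts. Their presence does not show how much of a punch was PVN. The deposited values are normalized counts, with sums per animal of 15.57 to 21.94 M (mega) in F1, 15.65 to 19.44 M in F2 and 18.69 to 18.98 M in F3. The tests used limma on log2(value + 1), separately for the table of each generation, with adjusted p-values over all genes tested and a threshold of 0.05. The fold changes are on that log2 scale, which understates changes of low genes.

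Across the members, the values of F1 and F2 lay in opposite directions, and those of F3 lay close to 0. In F2, 31 of 32 members were lower in sGC than in Veh, beside 75.5% of all genes tested, with a median log2 fold change of -0.62 beside -0.08 for all genes. In F1, 30 of 32 were higher in sGC, beside 63.8% of all genes, with a median of 0.29 beside 0.07 for all genes. In F3, 19 of 31 were higher, beside 49% of all genes, with a median of 0.06 beside 0 for all genes. A score for each animal, the mean log2 value of the members minus that of all genes tested, gives the same picture as a description. In F1 the score was 0.785, 0.506, 0.781, 0.855 and 1.041 in Veh and 1.259, 1.597, 0.662, 0.638 and 1.033 in sGC, a mean difference of 0.24. The F1 groups overlapped: SGM8 and SGM4 were the 2 sGC animals above every Veh animal, and the other 3 lay within the Veh range. In F2 the score was 1.351, 1.792, 1.375, 1.3 and 1.409 in Veh and 0.888, 0.87, 1, 0.701 and 1.043 in sGC, a mean difference of -0.54, equal to a 0.685-fold level. All F2 sGC animals lay below all F2 Veh animals. In F3 the score ran from 0.991 to 1.316 in Veh and from 1.059 to 1.454 in sGC, with a mean difference of 0.06 and overlapping groups. With medians in place of means in the score, the F3 difference was -0.01 (F1 0.22, F2 -0.54). Without the 5 members that the study names as changed in F1 and F2, the differences of the mean score were 0.18 in F1, -0.53 in F2 and 0.08 in F3.

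**Figure D1:**
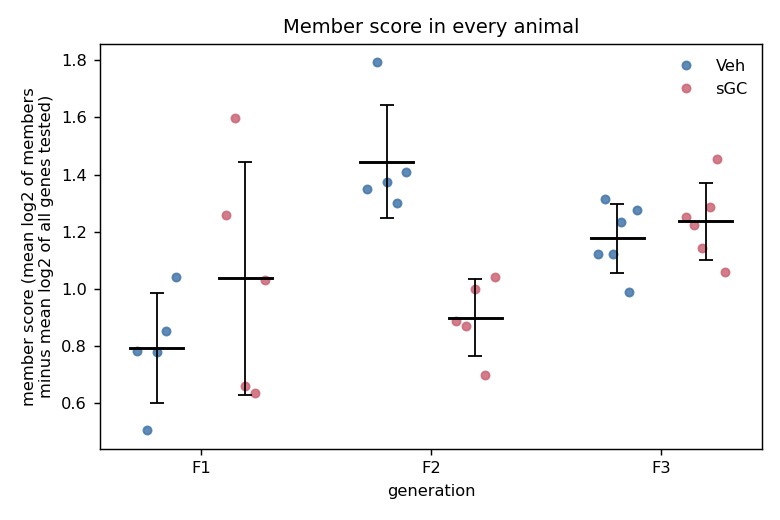
Member score of every animal (points; vertical axis in log2 units) by generation and group, with the group mean (line) and SD (bars; n = 5 per group in F1 and F2 and 6 in F3). The 5 F2 sGC animals, from 0.701 to 1.043, all lie below the 5 F2 Veh animals, from 1.3 to 1.792, while the groups overlap in F1 and F3.

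In F1, 1 of 32 members passed the threshold, RAPGEF5, while 0.657% of all 11874 genes tested did. At an unadjusted p under 0.05, 11 members were higher in sGC, beside 12.1% of all genes, and 0 were lower, beside 1.46%. The study itself names 5 members, RAPGEF5 among them, as changed in both F1 and F2. Of the 27 other members, 6 were higher at that level and 0 passed the threshold. RAPGEF5 was also the only member whose F1 groups did not overlap, beside 1.79% of all genes that were higher without overlap. The F1 values in sGC were widely spread: without SGM8 the score difference was 0.11, 25 of 32 members were higher, and the members' median exceeded that of all genes by 0.06, against 0.23 with all animals. That excess was 0.15 without Veh SGM7 and 0.37 without sGC SGM16. In F2, 0 of 32 members passed, as did 0% of all 11965 genes (limma, Benjamini-Hochberg). At an unadjusted p under 0.05, 28 of the 32 were lower in sGC, beside 9.17% of all genes, and 0 were higher, beside 2.49%. The groups did not overlap for 21 members, all lower in sGC, beside 2.31% of all genes, and the log2 fold change was below -0.5 for 22, beside 1.85%. Of the 27 members that the study does not name, 23 were lower at an unadjusted p under 0.05. Among these 27, 16 were lower without overlap and 17 had a log2 fold change below -0.5. The adjusted p-values closest to the threshold were 0.055, shared by PLLP, CNTN2, UGT8 and FA2H, and single animals decided this count. Without Veh SGM28, which had the lowest F2 Veh score, 23 of 32 members passed, beside 0.953% of all genes. Without Veh SGM22 the number was 15 (0.719% of all genes) and without sGC SGM30 it was 6 (0.192%), while it stayed at 0 without any other single F2 animal. In F3, 0 of 31 members passed, beside 0.0506% of 11866 genes, and 2 were higher at an unadjusted p under 0.05, beside 6.19%, and 0 were lower, beside 6.92%.

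**Figure D2:**
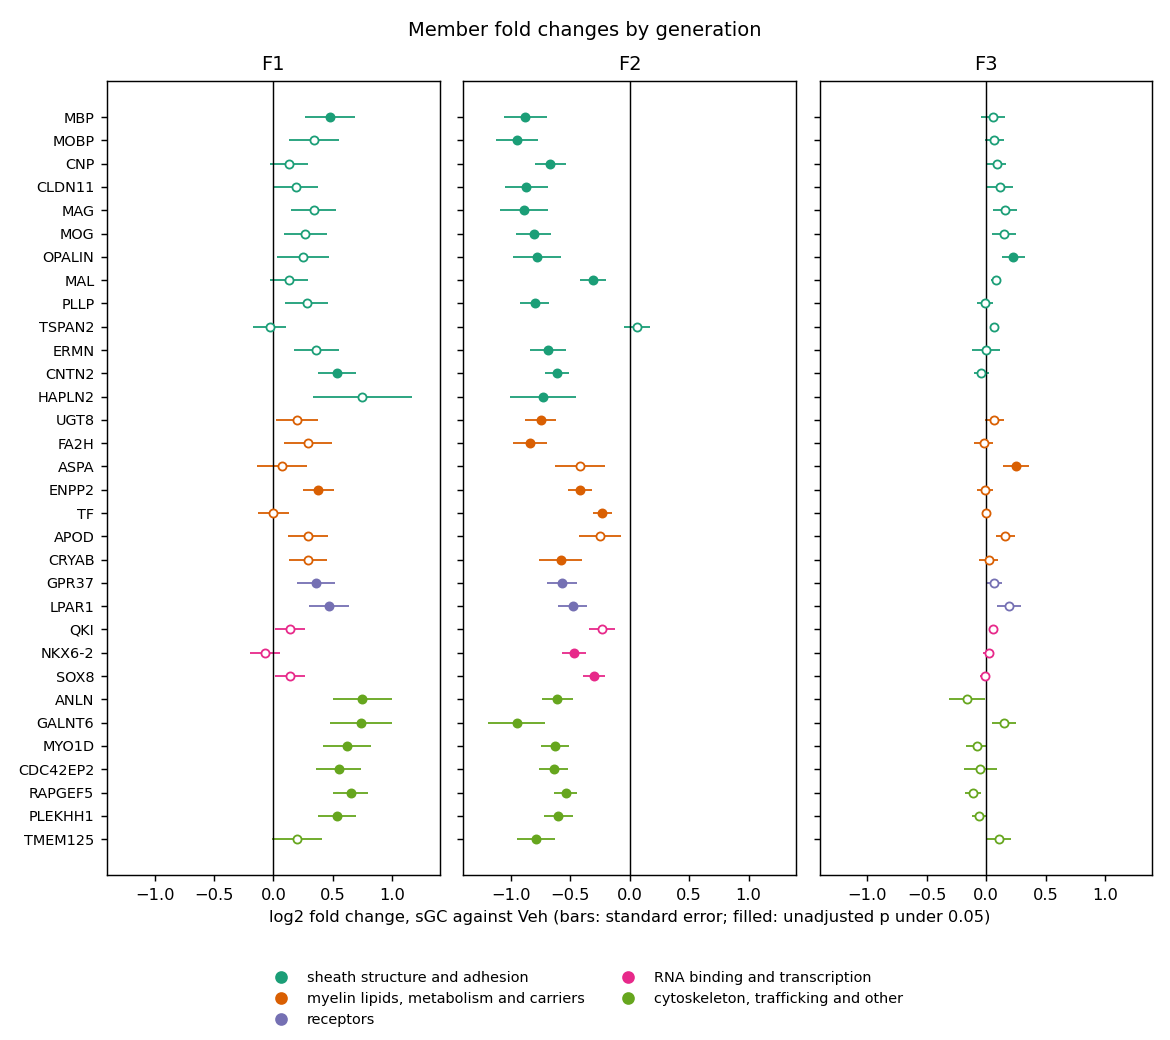
Log2 fold change of sGC against Veh (horizontal axis) for each member (rows) in F1, F2 and F3, with standard errors as bars, colours for the roles of the members, and filled points for an unadjusted p under 0.05. In F2, 31 of 32 points lie left of 0, in F1, 30 of 32 lie right of it, and in F3 the points stay between -0.16 and 0.25 (HAPLN2 is not drawn in F3).

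Proteins of the sheath itself made up the largest group, with 13 members tested in F1 and F2 and 12 in F3. In F2, 12 of 13 were lower at an unadjusted p under 0.05, beside 9.17% of all genes, with a median log2 fold change of -0.78. MBP encodes the basic protein that holds the inner faces of the myelin membrane together. In F2 its normalized count was 52007, 80064, 50718, 40819 and 53294 in Veh and 29666, 30287, 36635, 20421 and 32240 in sGC. Every F2 sGC animal was below every Veh animal, and the log2 fold change was -0.88 with a standard error of 0.18, equal to a 0.543-fold level (limma, adjusted p = 0.0622). In F1 the counts of MBP were 23366, 20063, 21919, 22079 and 25643 in Veh and 40170, 61408, 20911, 20551 and 29234 in sGC. Veh was narrow and sGC wide, with SGM12 and SGM16 inside the Veh range and the other 3 above it, for a log2 fold change of 0.48 (standard error 0.21, limma, adjusted p = 0.318). In F3, MBP was between 29891 and 42663 in Veh, with a median of 36975.5, and between 30085 and 42843 in sGC, with a median of 39703 (log2 fold change 0.06).

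MOBP, a second abundant basic protein of compact myelin, followed MBP. Its F2 values were 12889, 24815, 13828, 11940 and 13348 in Veh and 7818, 7814, 8734, 5786 and 8582 in sGC. These did not overlap and gave the lowest log2 fold change of the sheath genes, -0.95 with a standard error of 0.18 (by limma, adjusted p = 0.0622), and SGM23 was far above the other Veh animals. In F1 the counts of MOBP were 7728, 5998, 6932, 6441 and 8460 in Veh and 10637, 17862, 5805, 6261 and 8257 in sGC, which gave a log2 fold change of 0.34 with overlapping groups (adjusted p = 0.518). In F3 the lowest, median and highest MOBP counts were 7905, 9580 and 11281 in Veh and 8358, 9956.5 and 11025 in sGC, which gave a log2 fold change of 0.07.

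CNP, a phosphodiesterase of the cytoplasmic channels of myelin, had F2 values of 10992, 14585, 10535, 8512 and 10918 in Veh and 7232, 6576, 8363, 5592 and 6823 in sGC. The highest sGC value lay just under the lowest Veh value, and the log2 fold change was -0.67 (standard error 0.13, limma, adjusted p = 0.0622). In F1, CNP counts were 5855, 5446, 5305, 5196 and 5393 in Veh and 7422, 9223, 5270, 4321 and 4793 in sGC, so that 2 sGC animals were above every Veh animal and 2 below, and the log2 fold change was 0.13 (adjusted p = 0.792). In F3 CNP ran from 6495 to 8786 in Veh (median 7670.5) and from 6994 to 9850 in sGC (median 7992). CLDN11, the claudin of the tight junctions between myelin layers, had F2 values of 6468, 11159, 6552, 5255 and 6674 in Veh and 3926, 3798, 4650, 2744 and 4346 in sGC. The groups did not overlap and the log2 fold change was -0.87 (standard error 0.18, limma, adjusted p = 0.0645). In F1, CLDN11 was 3602, 3059, 3312, 3319 and 3696 in Veh and 5414, 6857, 3067, 2761 and 2774 in sGC, which gave a log2 fold change of 0.19 that came from SGM4 and SGM8 (adjusted p = 0.736). In F3, CLDN11 had a median of 4733.5 in Veh (3543 to 5445) and 4864 in sGC (4088 to 6392).

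On the outer and inner faces of the sheath, MAG is the adhesion protein next to the axon and MOG the glycoprotein on the outermost surface. MAG in F2 was 3600, 7126, 3626, 3025 and 4211 in Veh and 2405, 2108, 2774, 1572 and 2431 in sGC. All sGC values were lower, with a log2 fold change of -0.89 (standard error 0.2, limma, adjusted p = 0.0902). In F1, MAG was 1890, 1642, 1813, 1724 and 2216 in Veh and 2977, 4321, 1835, 1531 and 1959 in sGC, which gave a log2 fold change of 0.34 (adjusted p = 0.47) with 2 sGC animals above Veh. MAG in F3 had lowest, median and highest values of 1971, 2388.5 and 2935 in Veh and 2197, 2616.5 and 3222 in sGC. MOG in F2 was 3824, 5558, 3520, 3101 and 4242 in Veh and 2268, 2215, 2665, 1720 and 2581 in sGC. The groups were apart and the log2 fold change of MOG was -0.81 (standard error 0.15, limma, adjusted p = 0.0622). In F1, MOG was 1757, 1557, 1716, 1657 and 2059 in Veh and 2832, 3475, 1776, 1424 and 1646 in sGC, which gave a log2 fold change of 0.27 with overlap (adjusted p = 0.571). In F3 the MOG median was 2250.5 in Veh, from 1677 to 2422, and 2443 in sGC, from 1948 to 2967.

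PLLP, a membrane-spanning proteolipid of myelin, and CNTN2, an adhesion protein of the regions beside the nodes of Ranvier, were among the members with the smallest p in F2. PLLP was 1841, 2108, 1749, 1415 and 1791 in F2 Veh and 1036, 1016, 1214, 790 and 1076 in F2 sGC. Its groups were well apart, with a log2 fold change of -0.8 (standard error 0.12, limma, adjusted p = 0.055). CNTN2 was 3757, 4741, 4101, 4315 and 4563 in F2 Veh and 2923, 2658, 3252, 2302 and 2979 in F2 sGC, again without overlap (log2 fold change -0.61, standard error 0.1, limma, adjusted p = 0.055). In F1, CNTN2 was 2075, 1888, 1965, 1834 and 2233 in Veh and 3245, 4736, 2196, 2380 and 2595 in sGC. Here 4 of 5 sGC animals were above every Veh animal, and the log2 fold change was 0.54 (by limma, adjusted p = 0.11). In F1, PLLP was 845, 812, 849, 778 and 1044 in Veh and 1306, 1812, 835, 765 and 833 in sGC (log2 fold change 0.28, adjusted p = 0.547). In F3 both genes overlapped, with PLLP medians of 1001 in Veh and 997.5 in sGC and CNTN2 medians of 1881 and 1803.5.

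OPALIN, an oligodendrocyte membrane protein, was one of the 2 of 31 members (6.45%) higher in F3 sGC at an unadjusted p under 0.05, beside 6.19% of all genes. It ran from 572 to 758 in Veh (median 659.5) and from 670 to 996 in sGC (median 716.5), at a log2 fold change of 0.23 (by limma, adjusted p = 0.311) and overlapping groups. In F2 OPALIN was 1024, 1901, 1101, 938 and 1301 in Veh and 807, 741, 844, 446 and 777 in sGC, lower in all sGC animals (log2 fold change -0.78, adjusted p = 0.149). In F1 OPALIN was 671, 553, 626, 642 and 736 in Veh and 1035, 1513, 571, 504 and 576 in sGC, with only SGM4 and SGM8 above Veh. MAL, a proteolipid that sorts membrane proteins to the sheath, had a smaller fold change in F2. It was 1005, 926, 819, 640 and 884 in F2 Veh and 689, 713, 709, 629 and 671 in F2 sGC, so that the groups overlapped (log2 fold change -0.31, adjusted p = 0.296). In F1 MAL was 890, 845, 715, 495 and 690 in Veh and 862, 941, 579, 856 and 706 in sGC (log2 fold change 0.13), and in F3 its medians were 804.5 and 867.5 (log2 fold change 0.08, adjusted p = 0.395). TSPAN2, a tetraspanin of oligodendrocytes, was the exception in F2, with 652 to 896 in Veh and 684 to 919 in sGC (log2 fold change 0.06). ERMN, an actin-binding protein of the sheath, had -0.69 (adjusted p = 0.0795) and HAPLN2, a link protein of the nodal matrix, had -0.73 (adjusted p = 0.351) in F2. HAPLN2 varied widely in F1, at a log2 fold change of 0.75 (standard error 0.42, limma, adjusted p = 0.466).

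**Figure D3:**
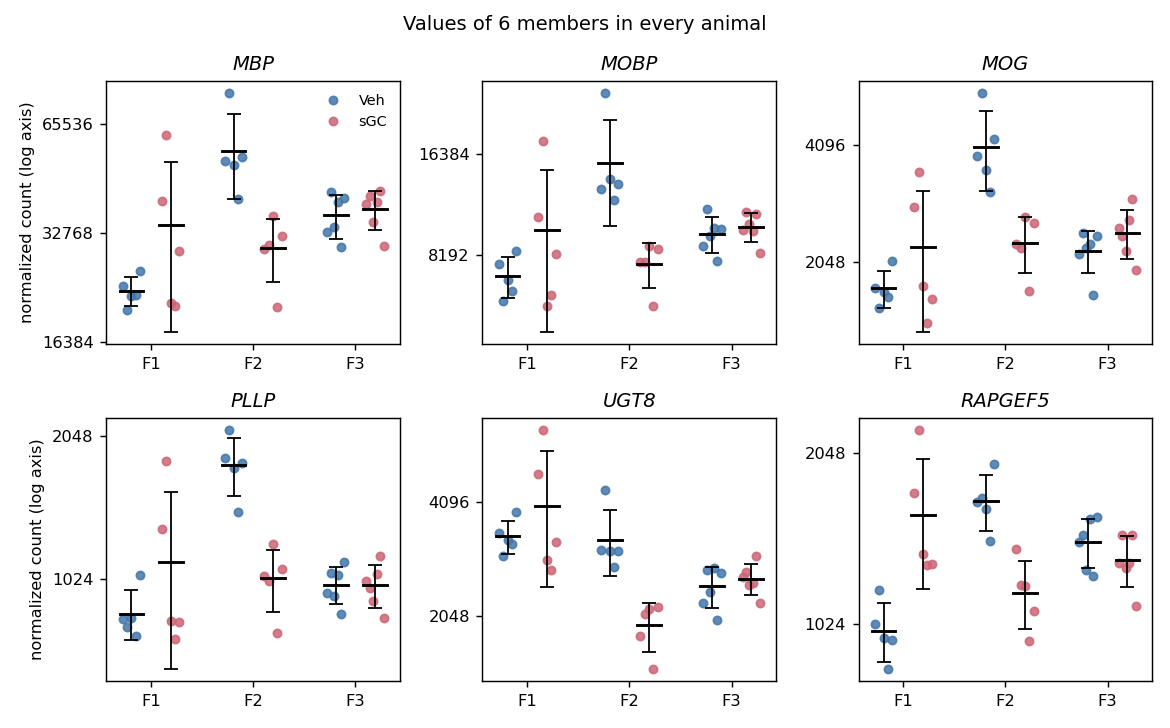
Normalized counts on a log axis of MBP, MOBP, MOG, PLLP, UGT8 and RAPGEF5 in every animal by generation and group, with the group mean (line) and SD (bars; n = 5 per group in F1 and F2 and 6 in F3). In F2 all 5 sGC animals lie below all 5 Veh animals in each panel. In F1 the sGC points are spread widely, and only for RAPGEF5 do all of them lie above Veh.

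Genes of myelin lipids, metabolism and transport had a median log2 fold change of -0.42 in F2. At an unadjusted p under 0.05, 5 of 7 were lower there, beside 9.17% of all genes. UGT8 makes galactocerebroside, the typical glycolipid of myelin. In F2 it was 3066, 4401, 3032, 2754 and 3039 in Veh and 1806, 2071, 2129, 1477 and 2151 in sGC, without overlap (log2 fold change -0.75, standard error 0.13, limma, adjusted p = 0.055). In F1 UGT8 was 3385, 2944, 3255, 3178 and 3846 in Veh and 4869, 6381, 2883, 2710 and 3220 in sGC, with a log2 fold change of 0.2 (adjusted p = 0.703) and only SGM4 and SGM8 above Veh. In F3 it ran from 1991 to 2745 in Veh (median 2511.5) and from 2208 to 2955 in sGC (median 2545). FA2H, which adds the hydroxyl group to the fatty acids of these lipids, was 1289, 1474, 1195, 958 and 1256 in F2 Veh and 670, 640, 904, 515 and 741 in F2 sGC. The log2 fold change was -0.84 (standard error 0.14, limma, adjusted p = 0.055) with no overlap. FA2H in F1 was 573, 445, 508, 471 and 592 in Veh and 869, 1070, 470, 429 and 535 in sGC (log2 fold change 0.29, adjusted p = 0.566), and in F3 it ran from 537 to 735 in Veh (median 688.5) and from 547 to 701 in sGC (median 662.5).

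ENPP2, the secreted enzyme that makes lysophosphatidic acid, was higher in sGC in F1 at an unadjusted p under 0.05, though not at the adjusted threshold. It was 1059, 1263, 1004, 946 and 915 in F1 Veh and 1364, 1688, 1146, 1132 and 1449 in F1 sGC, where SGM12 and SGM16 lay within the Veh range (log2 fold change 0.38, standard error 0.13, limma, adjusted p = 0.18). In F2 ENPP2 was 1639, 1590, 1558, 1257 and 1669 in Veh and 1332, 1163, 1271, 989 and 1020 in sGC, with overlap only through SGM28 of Veh (log2 fold change -0.42, adjusted p = 0.125). In F3 it ran from 1077 to 1370 in Veh (median 1257) and from 1110 to 1462 in sGC (median 1256.5). ASPA, which splits N-acetylaspartate to supply acetate for lipid synthesis, was the second member higher in F3 sGC at an unadjusted p under 0.05, beside 6.19% of all genes. It ran from 82 to 106 in F3 Veh (median 96.5) and from 92 to 135 in F3 sGC (median 117), at a log2 fold change of 0.25 (by limma, adjusted p = 0.351). ASPA was low and variable in F2, with 162, 119, 128, 86 and 116 in Veh and 72, 106, 113, 59 and 113 in sGC (log2 fold change -0.42, adjusted p = 0.477), and in F1, with 103, 119, 84, 76 and 66 in Veh and 122, 121, 75, 66 and 90 in sGC.

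TF, the iron carrier transferrin, had smaller fold changes. It was 13612, 12879, 15269, 15336 and 15249 in F2 Veh and 13779, 12465, 12469, 11158 and 11999 in F2 sGC (log2 fold change -0.23, adjusted p = 0.318), with SGM21 of sGC inside the Veh range. In F1 TF was 18249, 18857, 16218, 15133 and 14497 in Veh and 16867, 20258, 16512, 15371 and 14187 in sGC (log2 fold change 0), and in F3 it ran from 15039 to 16785 (median 15848) and from 14956 to 17038 (median 15735.5). APOD, an apolipoprotein, ran from 2509 to 5570 in F2 Veh and from 2441 to 3613 in F2 sGC (log2 fold change -0.25), and CRYAB, a small heat shock protein, had -0.58 in F2 (adjusted p = 0.247). The 2 receptors tested were lower in F2 and higher in F1, each at an unadjusted p under 0.05, beside 9.17% and 12.1% of all genes. The log2 fold changes of F1 and F2 were 0.36 and -0.57 for GPR37, an orphan receptor, and 0.47 and -0.48 for LPAR1, a receptor for the lysophosphatidic acid that ENPP2 makes. Among the regulators, QKI, which binds myelin RNAs, was 11427, 10854, 10760, 8557 and 10513 in F2 Veh and 8801, 9922, 9295, 6832 and 9802 in F2 sGC (log2 fold change -0.23, adjusted p = 0.447). In F1 QKI was 10245, 11733, 9602, 8263 and 9175 in Veh and 11187, 13413, 9912, 10154 and 9398 in sGC (log2 fold change 0.14), and in F3 it ran from 19461 to 21700 (median 20573.5) and from 20797 to 22563 (median 21388.5). The transcription factors NKX6-2 and SOX8 had -0.47 (adjusted p = 0.081) and -0.3 (adjusted p = 0.224) in F2, and -0.07 and 0.14 in F1.

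In the cytoskeleton and trafficking group, 5 members, MYO1D, GALNT6, RAPGEF5, CDC42EP2 and ANLN, are genes that the study itself names as changed in both F1 and F2, so they are no independent evidence of direction. In this group 6 of 7 were higher in F1 at an unadjusted p under 0.05, beside 12.1% of all genes. The median log2 fold change was 0.62. In F2, 7 of 7 were lower at that level, beside 9.17% of all genes, with a median of -0.63. RAPGEF5, an exchange factor for Rap GTPases, rose in F1. It was 1024, 1173, 968, 853 and 961 in F1 Veh and 1736, 2247, 1361, 1297 and 1304 in F1 sGC, all sGC animals above all Veh animals, a 1.57-fold level (log2 fold change 0.65, standard error 0.15, limma, adjusted p = 0.0402). The call was lost without SGM3, SGM11, SGM15, SGM19, SGM4 or SGM8, with adjusted p-values up to 0.13 and log2 fold changes from 0.51 to 0.66. In F2 RAPGEF5 was 1678, 1706, 1633, 1432 and 1954 in Veh and 1386, 1199, 1194, 955 and 1078 in sGC, again without overlap but in the other direction (log2 fold change -0.54, standard error 0.1, limma, adjusted p = 0.0622). In F3 RAPGEF5 ran from 1243 to 1576 in Veh (median 1447) and from 1102 to 1469 in sGC (median 1309.5).

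MYO1D, an unconventional myosin, was 338, 447, 325, 295 and 305 in F1 Veh and 846, 762, 376, 361 and 431 in F1 sGC (log2 fold change 0.62, adjusted p = 0.155). In F2 MYO1D was 509, 450, 484, 371 and 445 in Veh and 289, 293, 348, 230 and 305 in sGC (log2 fold change -0.63, adjusted p = 0.0622), without overlap. GALNT6, which starts O-linked sugar chains, had low values. It was 34, 29, 35, 38 and 45 in F1 Veh and 83, 105, 42, 43 and 52 in F1 sGC (log2 fold change 0.74, adjusted p = 0.178). It was 74, 104, 95, 73 and 77 in F2 Veh and 43, 38, 65, 24 and 56 in F2 sGC (log2 fold change -0.95, adjusted p = 0.138). CDC42EP2, an effector of the GTPase CDC42, was 90, 82, 76, 78 and 66 in F1 Veh and 135, 158, 89, 111 and 94 in F1 sGC (log2 fold change 0.55, adjusted p = 0.178), and 130, 150, 139, 131 and 149 in F2 Veh and 98, 81, 102, 76 and 93 in F2 sGC (log2 fold change -0.64, adjusted p = 0.0622). Scaling the samples by median-of-ratios size factors called CDC42EP2 as well in F1 (adjusted p = 0.0458), beside 17.3% of all genes.

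ANLN, a scaffold for septin filaments in myelin, was 301, 296, 294, 309 and 334 in F1 Veh and 730, 1052, 274, 304 and 570 in F1 sGC (log2 fold change 0.75, adjusted p = 0.158). In F2 ANLN was 695, 602, 675, 572 and 645 in Veh and 379, 413, 467, 318 and 535 in sGC (log2 fold change -0.61, adjusted p = 0.0622). PLEKHH1, which carries a pleckstrin homology domain, was 1193, 1255, 1212, 1205 and 1346 in F1 Veh and 2215, 2921, 1325, 1466 and 1519 in F1 sGC, with 4 of 5 sGC animals above Veh (log2 fold change 0.54, adjusted p = 0.126). In F2 PLEKHH1 was 2010, 2348, 2056, 1971 and 2088 in Veh and 1307, 1465, 1817, 1011 and 1424 in sGC, without overlap (log2 fold change -0.6, adjusted p = 0.0622). TMEM125, a membrane protein, had a log2 fold change of -0.79 in F2 (adjusted p = 0.0622). In F3 MYO1D ran from 404 to 586 in Veh (median 511.5) and from 396 to 546 in sGC (median 494), ANLN from 401 to 682 (median 524.5) and from 308 to 548 (median 522.5), and GALNT6 from 40 to 56 (median 47.5) and from 46 to 63 (median 52). CDC42EP2 ran from 79 to 117 (median 94) and from 72 to 126 (median 93.5), and PLEKHH1 from 1150 to 1438 (median 1322.5) and from 1140 to 1374 (median 1259). In F3 every member of the group had overlapping groups, with log2 fold changes from -0.16 for ANLN to 0.15 for GALNT6.

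The difference in effect between generations was tested directly in pairs of tables. Between F1 and F2, 15 of 32 members passed the threshold, all with a higher sGC effect in F1, beside 1.37% of the 11612 genes tested in both, and 10 of the 27 members that the study does not name also passed. The difference was 1.36 for MBP (F1 0.48, F2 -0.88; adjusted p = 0.0381), 1.29 for MOBP (adjusted p = 0.0468) and 1.16 for CNTN2 (adjusted p = 0.0237). It was 0.8 for ENPP2 (adjusted p = 0.0266) and 0.95 for LPAR1 (adjusted p = 0.0447), and the largest difference was 1.7 for GALNT6 (adjusted p = 0.0266). This count depended on the fit. With median-of-ratios size factors it was 7, beside 4.44% of all genes, and 3 of the 27 members that the study does not name passed. With the directions that the authors' normalization removed as covariates it was 0 (limma). In that fit 26 members were above 0 at an unadjusted p under 0.05, beside 12.3% of all genes. The direction removed in F1 was mostly that of Veh SGM11 (weight 0.89). It was also 0 without Veh SGM11 or SGM15 of F1, Veh SGM29 or sGC SGM24 of F2 (24 to 26 members above 0 at an unadjusted p under 0.05, beside 10.5% to 12.2% of all genes). It was 4 to 7 without any 1 of 9 other animals, SGM4 and SGM8 of F1 sGC among them (0.267% to 0.766% of all genes), and 21 without Veh SGM28, beside 1.89% of all genes. Between F2 and F3, 17 of 31 members passed, all more negative in F2, beside 1.52% of 11638 genes. MOBP differed by -1.02 (adjusted p = 0.0143), PLLP by -0.79 (adjusted p = 0.00833) and MAG by -1.05 (adjusted p = 0.0256). With the removed directions as covariates 1 of 31 passed, beside 0.18% of all genes, and without F3 Veh SGM13, F3 Veh SGM9 or the F3 sGC animal SGM21 of the second batch the number was 10, 8 and 8, beside 0.739%, 0.756% and 0.696% of all genes. Between F1 and F3, RAPGEF5 alone passed of 31 members (difference 0.75, adjusted p = 0.0113), beside 3.63% of 11539 genes. Without F1 Veh SGM7, F1 sGC SGM12 or F1 sGC SGM16 the number was 5, beside 15.4%, 4.3% and 3.22% of all genes, and without F1 sGC SGM20 it was 3, beside 7.48%. The F1 and F2 tables share no animals. Of 32 members, 30 were higher in F1 and lower in F2, beside 47.2% of all genes. This count includes the 5 members that the study names as changed in both, so it is no independent evidence of direction. Of the 27 others, 25 were higher in F1, beside 63.8% of all genes, and 26 were lower in F2, beside 75.5%.

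Other myelin and cell type lists moved with the members, and their part in the result was not tested. Of 34 myelin genes that are not members and were tested in F1, 30 were higher in sGC, beside 63.8% of all genes. Their median log2 fold change was 0.22. Of 35 in F2, 33 were lower, beside 75.5% of all genes, with a median of -0.42. At an unadjusted p under 0.05, 27 were lower in F2, beside 9.17%. CDH19, a gene of this list, is also named by the study as changed in both F1 and F2. MYRF, the transcription factor that drives the myelin programme, had 691 ± 53.3 (SD, n = 5) normalized counts in F1 Veh and 1100 ± 492 in F1 sGC, and 1791 ± 370 and 1088 ± 167 in F2. Genes of oligodendrocyte precursors had medians of 0.15 in F1 and -0.21 in F2, with SOX10, a factor of the whole lineage, at -0.58 in F2. TCF7L2, which is also strongly expressed in the thalamus, ran from 523 to 5450 in F1 Veh and from 354 to 664 in F1 sGC. The lipid pathways that feed myelin had medians nearer to 0. Genes of cholesterol synthesis had a median of 0 in F1 and -0.16 in F2. There 17 of 18 were lower in F2, beside 75.5% of all genes, and 6 had an unadjusted p under 0.05, beside 9.17%. Sphingolipid synthesis and turnover had medians of 0.01 and -0.07, beside 0.07 and -0.08 for all genes. In no list did a gene pass the adjusted threshold in any generation on the deposited scale.

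Some lists of other cell types also had medians away from that of all genes, which was 0.07 in F1 and -0.08 in F2. The F1 median of microglia genes, 0.05, was close to it. Of 12 endothelial genes 12 were higher in F1 sGC, beside 63.8% of all genes, with a median of 0.44. At an unadjusted p under 0.05, 8 were higher in F1, beside 12.1%. In F2 sGC 11 of 11 were lower, beside 75.5% of all genes, with a median of -0.32, and 5 at that level, beside 9.17%. Their summed normalized counts ranged from 9456 to 14021 in F1 Veh and from 11778 to 21383 in F1 sGC, and from 10626 to 16088 in F2 Veh and from 9363 to 11697 in F2 sGC. Genes of PVN neuroendocrine neurones went the other way. They were lower for 9 of 10 in F1 (median -0.67), beside 36.2% of all genes, and higher for 8 of 10 in F2 (median 0.24), beside 24.5%. Their sums ranged from 100965 to 227053 in F1 Veh and from 29428 to 197622 in F1 sGC, and from 67790 to 116596 and from 91924 to 187467 in F2. For OXT, the oxytocin gene, the log2 fold changes of F1 and F2 were -1.54 and 0.65. Of 8 ependymal genes all 8 were higher in F2 sGC, beside 24.5% of all genes, with a median of 0.93. Their F2 sums ranged from 5963 to 9185 in Veh and from 7097 to 12658 in sGC. Astrocyte genes had medians of 0.2 and 0, microglia genes 0.05 and -0.2, and neurone genes 0.14 and -0.18 in F1 and F2. Fibroblast genes were represented by 1 gene in F1 and 2 in F2. In F3 the median of every list lay between -0.02 and 0.1.

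**Figure D4:**
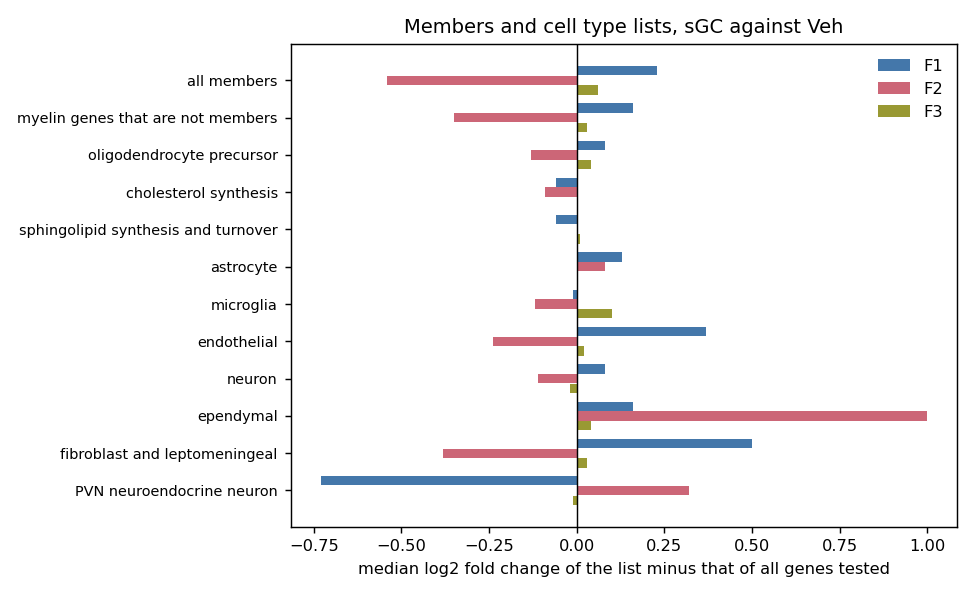
Median log2 fold change of sGC against Veh for the members and for each gene list, minus the median of all genes tested (horizontal axis), in F1, F2 and F3. The members, the other myelin genes and the endothelial genes are above 0 in F1 and below 0 in F2, the PVN neuroendocrine genes are the reverse, and the fibroblast bars rest on 1 gene in F1 and 2 in F2.

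Within a group, animals with a high value of one member tended to have a high value of the others. After the group means were removed, 29 of 32 members in F1, 23 of 32 in F2 and 25 of 31 in F3 correlated above 0.5 with the mean of the other members, over 10, 10 and 12 animals. These animals share library depth and tissue content, so this is a description. TSPAN2 was the least alike in F1 (r = -0.57) and F3 (r = 0.2), and APOD in F2 (r = -0.49). Of 11398 other genes tested in all 3 tables, the 5 whose pattern was most like the member score were MYRF, PLA2R1, LIPK, ADAMTS4 and SLC44A1. Their within-group correlations were at least 0.84 in each table, with 0.98, 0.93 and 0.93 for MYRF in F1, F2 and F3.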

How the data were processed

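Per the study's methods, the authors mapped reads to the cavPor3 assembly, counted reads per gene and normalized each generation by residuals with RUVSeq (for F3 after ComBat for sequencing batch). The deposited values are whole numbers, taken here as those normalized counts after rounding and handled as a score. As these are no raw reads, no count model was used. Columns with the authors' own fold changes, test statistics and p-values were not used. Near-zero singular values of the log2 values show how many directions that step took out, which was 1 in F1, 1 in F2 and 2 in F3. The 2 re-sequenced F3 Veh libraries, which the authors removed before that normalization, are not analysed here.

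For each table, log2(value + 1) of genes with a mean of at least 10 was fitted in limma (version 3.58.1, R version 4.3.3; linear model, empirical Bayes with a mean trend), with Benjamini-Hochberg adjustment over all genes tested and a threshold of 0.05. Differences between generations used 4 group means in 1 fit. The fits were also run on simulated data in which genes varied independently and no direction had been removed. That run cannot show whether the p-values of the deposited values are too small. Precision rests on the sums per animal, 15.57 to 21.94 M, and on the small groups, and normalized values allow no counting interval. The members, the lists and the rule for named genes (fixed markers, the 5 members the study names, members under the threshold and the 3 smallest p per generation) were chosen with earlier results of these data known. Other scalings, pseudocounts, filters, covariates and leaving out each animal were tried. Genome coordinates and sequences are not used here.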

Additional observations from a re-analysis of the deposited data

Results flagged for a closer look

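Within the groups, 1 animal stood apart from the others of its group in 8 of 138 sets of values examined for the score and the named members (Dixon's test on log2 values), where chance gives about 6.9. Veh SGM23 of F2 was highest for MOBP (24815, the others 11940 to 13828), UGT8 (4401, the others 2754 to 3066) and the member score (1.792, the others 1.3 to 1.409), and the score difference of F2 was -0.46 without it. Veh SGM28 of F2 was lowest for ENPP2 (1257, the others 1558 to 1669) and QKI (8557, the others 10513 to 11427). sGC SGM24 of F2 was lowest for MOBP (5786, the others 7814 to 8734) and OPALIN (446, the others 741 to 844). Veh SGM9 of F3 was lowest for MOG (1677, the others 2140 to 2422).

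The effect of sGC differed between F1 and F2 in the main limma fit of the difference for 13 of the named members. All were higher in F1, and 1.37% of all genes tested in both passed. The differences in log2 fold change were 1.36 for MBP and ANLN, 1.29 for MOBP, 1.08 for MOG and PLLP, 1.13 for FA2H, 0.8 for ENPP2, 1.24 for MYO1D, 1.7 for GALNT6, 1.18 for RAPGEF5, 1.19 for CDC42EP2, 1.16 for CNTN2 and 1.14 for PLEKHH1. Between F1 and F3 the effect differed for RAPGEF5, by 0.75, beside 3.63% of all genes. Between F2 and F3 it differed for 13 of the named members, beside 1.52% of all genes. The differences were -0.94 for MBP, -1.02 for MOBP, -0.77 for CNP, -0.99 for CLDN11, -1.05 for MAG and -0.96 for MOG. They were -0.82 for UGT8 and FA2H, -1.1 for GALNT6, -0.57 for CNTN2, -0.54 for PLEKHH1, -0.79 for PLLP and -1.01 for OPALIN. Some named members were chosen by their p in these data. With the removed directions as covariates, 0 of 32 members passed between F1 and F2, beside 0% of all genes. Between F2 and F3, 1 of 31 passed with these covariates, beside 0.18%.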

How the results depend on the processing

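No paired analysis was done. The Veh and sGC columns of a generation are numbered alike, but no label states that equal numbers mark a pair. The median log2 fold change of the members relative to all genes kept its sign in every alternative tried in F1, F2 and F3, but the F3 score difference was -0.01 with medians over members in place of means. The cause of the changes below was not tested. In F1, the number of all genes called was 2058 with median-of-ratios size factors (1006 higher and 1052 lower, against 72 and 6 on the deposited scale). It was 1943 with scaling to the sample total and 2084 with quantile normalization. The number of members called was 2, 2 and 1, and 0 without the 5 members the study names. Of the 27 others, 4 were higher at an unadjusted p under 0.05 with median-of-ratios size factors, beside 16% of all genes. On the deposited scale 6 were, beside 12.1%. In F2, 42 genes and 5 members passed with quantile normalization, and 17 genes and 4 members with a mean of at least 50. In F3, the number of genes called was 1 with the removed directions as covariates, 2 in the first sequencing batch alone and 3 with batch as a covariate, and 0 members passed in each (1 at an unadjusted p under 0.05).

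Of the differences between F1 and F2, 7 members passed with median-of-ratios size factors and with scaling to the sample total, beside 4.44% and 4.22% of all genes. With the removed directions as covariates 0 passed, beside 0%. With each table's own spread, an alternative chosen after seeing the data, 21 passed, beside 2.41%. Of those between F2 and F3, against 17 in the main fit, 13 and 12 passed with these scalings, beside 1.73% and 1.31% of all genes. With each table's own spread 14 passed, beside 0.722%, and with the removed directions as covariates 1 passed, beside 0.18%.

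Leaving out each animal in turn gave 15 to 474 genes and 0 to 4 members in F1, 0 to 114 genes and 0 to 23 members in F2, and 1 to 15 genes and 0 members in F3. It gave 0 to 21 members for the difference between F1 and F2, 1 to 5 for F1 and F3 and 8 to 22 for F2 and F3. The median relative to all genes ran from 0.06 to 0.37 in F1, from -0.59 to -0.48 in F2 and from 0.02 to 0.08 in F3. The score difference ran from 0.11 to 0.34 in F1, from -0.58 to -0.46 in F2 and from 0.02 to 0.1 in F3. In F1 the log2 fold change turned for CNP (-0.03 to 0.25), CLDN11 (-0.01 to 0.31), MAL (-0.01 to 0.23) and ASPA (-0.03 to 0.19), and for ASPA also with quantile normalization (-0.05). In F3 it turned for FA2H (-0.08 to 0.03), ENPP2 (-0.05 to 0.02), CDC42EP2 (-0.13 to 0.03) and PLLP (-0.05 to 0.04), and for FA2H and CNTN2 with the first batch alone or batch as a covariate (0.01 and 0.02 in both). These values lie close to 0. Over all alternatives, 2110 values of named members kept direction and call, 210 lost a call, 78 gained one and 26 turned. With 5 or 6 animals a group and values that are not raw reads, small differences between groups cannot be resolved.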
